A study of Rattus norvegicus with 30 samples.

Results

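In MBD-seq data of 3 rat brain tissues, 1412 of 19758 promoters (7.15%) were barely captured in every tissue. They were selected on their measured values, as the promoters whose median over 10 libraries was under 10 CPM in the perilesional cortex, in the ipsilateral hippocampus and in the ipsilateral thalamus. CPM was the count of a promoter per 1000000 promoter counts of its library. A promoter was the window from 5000 bp upstream to 200 bp downstream of a transcription start site. Promoters were matched between the tissues by Ensembl gene identifier, and 438 of 20196 identifiers were left out because a table gave them no single set of counts.

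The tissue came from 10 adult male Sprague-Dawley rats (Harlan), which were all anaesthetised with a pentobarbital and chloral hydrate mixture and had a craniectomy over the left parietal lobe. Traumatic brain injury (TBI) was produced by a lateral fluid-percussion impact in 5 of them (rats 6 to 10), and the 5 sham-operated rats (rats 1 to 5) had the same surgery with no impact. Every rat gave 1 library of each tissue at 3 months, which made 30 libraries, and the hippocampal samples were dissected as dentate gyrus with part of CA3. The question asked of the promoters was whether their methylation differed between TBI and sham at this chronic stage.

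In MBD-seq, fragmented DNA is incubated with the methyl-binding domain of a protein that recognises methylated CpG, and what it holds back is sequenced. Many mammalian promoters lie in CpG islands that are kept free of methylation, and others have so few CpG sites that little can bind even where those are methylated. A low count can therefore belong to an unmethylated promoter, to a CpG-poor promoter or to sequence that reads cannot be placed on, and the count alone does not tell these apart. Because the files do not pair the Ensembl identifiers with gene symbols, positions or sequences, the promoters are given by identifier, and neither their CpG content nor the function of their genes was examined.

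The promoter counts summed to 1862708 to 3992056 per cortex library, 1430875 to 2440662 per hippocampus library and 2675177 to 4227800 per thalamus library. Over the 18346 other promoters, the profile of 4 libraries was closer to the mean profile of another tissue than to that of the tissue on their label. The library labelled cortex of sham rat 4 correlated at 0.967 with the hippocampus and 0.896 with the cortex, and that of TBI rat 6 at 0.961 and 0.872. The library labelled hippocampus of sham rat 5 correlated at 0.942 with the cortex and 0.834 with the hippocampus. The library labelled thalamus of TBI rat 6 correlated at 0.917 with the hippocampus and 0.916 with the thalamus. In 2 more libraries, cortex of TBI rat 10 and hippocampus of TBI rat 9, single promoters were many times their level elsewhere. The cortex library of TBI rat 10 also had the lowest correlation with its own tissue (0.668) and the highest total in the cortex. Levels, zeros, spread, gene body counts and the TBI comparisons are also given without these 6 libraries, with the same promoters. The cortex library of sham rat 1, which correlated at 0.872 with its own tissue, was not among them.

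The capture of the selected promoters was lowest in the hippocampus. Their tissue medians had a median of 7.57 CPM in the cortex (interquartile range 5.98 to 8.82), while the hippocampus gave 3.61 CPM (2.58 to 4.95) and the thalamus 4.56 CPM (2.91 to 6.28). For the other promoters, the corresponding medians were 32.1, 23.4 and 32.9 CPM. Per library, a selected promoter had a median of 15 counts in the cortex, 7 for hippocampus and 14 for thalamus, against 70, 47 and 103 for the others. Without the 6 libraries that stood apart, the medians of the selected promoters were 7.96, 3.16 and 4.75 CPM. These levels carry no test, since the same values chose the promoters.

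The cortex was the tissue with the fewest promoters under the threshold. In the cortex, 1520 promoters had a median under 10 CPM, and 92.9% of them were under it in the other tissues as well. The hippocampus had 5547 such promoters, of which 25.5% were selected, and the thalamus 2542, of which 55.5% were selected. The cortex had the highest of the 3 medians for 1226 selected promoters (86.8%, against 39.6% of the others), the thalamus for 108 and the hippocampus for 78. Without the 6 libraries, the cortex was highest for 87.7% of the selected and 48.9% of the other promoters. These shares carry no test, since the rule that chose the promoters used the same medians. For the RNA of these tissues, the methods name a Genome Analyzer IIx for cortex and hippocampus and a HiSeq for thalamus, and refer to that text for MBD-seq, whereas the labels name the Genome Analyzer IIx for every library. If the instruments differed, thalamus and instrument cannot be told apart in these levels.

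**Figure D1:**
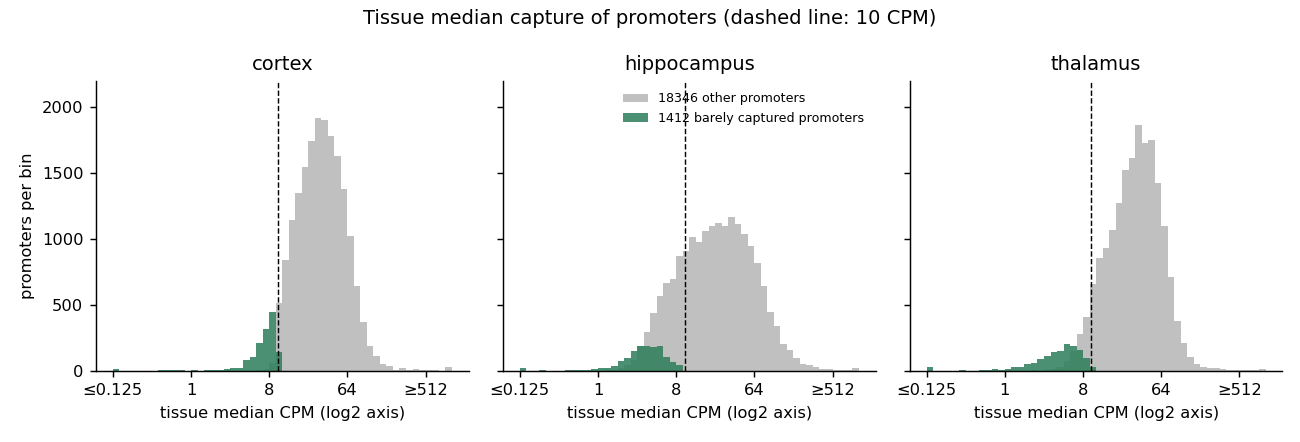
Histograms of the tissue median CPM (log2 x axis) of the 1412 selected promoters (green) and the 18346 other promoters (grey) in each tissue, with 10 CPM as the dashed line. In the cortex nearly all promoters left of the line are green, whereas in the hippocampus 5547 promoters lie left of it and most are grey.

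The threshold cut through a continuous distribution. The 3 selected promoters nearest to it had cortex medians of 9.993, 9.994 and 9.998 CPM, with hippocampus medians of 6.82, 8.48 and 3.11 CPM. The 3 nearest promoters on the other side had highest medians of 10.0007, 10.0031 and 10.0041 CPM, reached in the cortex, thalamus and cortex. A limit of 5 CPM would have kept 199 promoters and a limit of 20 CPM 5207. Leaving out 1 rat at a time gave 1264 to 1491 promoters. Without the 6 libraries that stood apart, 1216 of the 1412 were selected again, 196 were lost and 20 were gained.

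The order of the selected promoters by level differed more between tissues than that of the others. Spearman's rho of their medians was 0.41 between cortex and hippocampus, 0.68 between cortex and thalamus and 0.29 between hippocampus and thalamus. Over the other promoters it was 0.90, 0.95 and 0.86. Without the 6 libraries, it was 0.27, 0.70 and 0.25 over the selected and 0.87, 0.95 and 0.85 over the other promoters. These values are descriptive, as the selected promoters cover a narrow range of levels, share their libraries and rest on few counts.

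Most of the selected promoters had few counts but were not at 0 in any library. A count above 0 was found in all 30 libraries for 1070 of them (75.8%), against 99.4% of the other promoters. Of their 14120 values per tissue, 191 were 0 in the cortex (1.35%). The hippocampus had 489 (3.46%) and the thalamus 464 (3.29%). At least 1 library was at 0 for 55 promoters when cortex was measured, 218 for hippocampus and 197 for thalamus. Without the 6 libraries, 1.295% of the values in cortex were 0, with 4.04% for hippocampus and 2.43% for thalamus. At least 1 of the 7, 8 and 9 libraries left was at 0 for 40, 218 and 90 promoters. No value of the 733 promoters with medians of 10 to 20 CPM in all 3 tissues was 0 in any library. These contrasts in zeros carry no test, since the same counts chose the promoters.

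A small group made up much of the lowest end. In sum over the 30 libraries, 17 selected promoters had under 30 counts, and 5 of these had none, which with a floor of 3 counts allows a level of up to 0.0401 CPM over all libraries and covers counting error only. The gene bodies of these 5 identifiers had 0 counts as well. Of the 17, 15 carried an identifier number above 40000, as did 30.4% of the selected promoters and 17.1% of the others. Medians of 0 were found for 14 promoters in cortex, 20 in hippocampus and 28 in thalamus.

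Some selected promoters did not give independent values. In all 30 libraries, 78 of them had the same counts as another identifier, so that the 1412 promoters held 1366 distinct sets of counts. The share among the other promoters was not counted. Repeated counts were found over all cortex windows too, where 20451 of 22302 were left with each set kept once, repeats of 1 identifier included. A further property of the tables is that 72 selected identifiers were listed in several rows with the same counts.

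How much of a library fell on the selected promoters depended on the library. In sham cortex, their median was 9.84 CPM in rat 1, 7.29 in rat 2, 6.96 in rat 3, 4.43 in rat 4 and 7.52 in rat 5. In the TBI cortex, it was 3.58 CPM in rat 6, 7.18 in rat 7, 8.02 in rat 8, 8.13 in rat 9 and 10.8 in rat 10. The highest and the lowest cortex library were both TBI, and the libraries labelled cortex of rats 4 and 6, which were closest to the hippocampus profile, were the lowest of the 10.

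In the sham hippocampus, the median of the selected promoters was 2.96 CPM in rat 1, 5.25 in rat 2, 3.37 in rat 3, 3.27 in rat 4 and 6.06 in rat 5. In the TBI hippocampus, it was 2.95 CPM in rat 6, 2.80 in rat 7, 2.85 in rat 8, 6.74 in rat 9 and 3.28 in rat 10. Here the highest TBI library was that of rat 9, and the highest sham library was that of rat 5, which was closest to the cortex profile.

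In the sham thalamus, the median was 4.02 CPM in rat 1, 4.74 in rat 2, 4.39 in rat 3, 5.23 in rat 4 and 2.80 in rat 5. In the TBI thalamus, it was 0.946 CPM in rat 6, 6.02 in rat 7, 4.90 in rat 8, 5.26 in rat 9 and 4.75 in rat 10. The library of rat 6 was about as close to the hippocampus as to the thalamus profile (0.917 and 0.916). Its median was also below that of every hippocampus library, of which the lowest had 2.80 CPM. Apart from rat 6, the TBI libraries of the thalamus had 4.75 to 6.02 CPM. Sham rat 4 lay within that range, and sham rats 1, 2, 3 and 5 lay below it, rat 2 only just.

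The number of zeros varied with the library as well. In the library labelled thalamus of TBI rat 6, 155 selected promoters (10.98%) had a count of 0, although its total was the highest of the 30 libraries. In the other 9 thalamus libraries, 23 to 44 were at 0. In the hippocampus, the number at 0 was lowest in TBI rat 9 (16) and sham rat 5 (17) and highest in TBI rat 7 (100), whose library had the lowest total. In the cortex, 12 to 27 were at 0, and the libraries with the highest and the lowest median were not all at the ends of this range.

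In a separate count table, of gene bodies, these libraries differed again in the share of counts that fell on the same genes. All 1412 identifiers had a gene body row. Their share of all gene body counts was 1.05% in the cortex of TBI rat 10, 0.695% in sham rat 1, 0.241% in sham rat 4 and 0.220% in TBI rat 6, with 0.403% to 0.636% in the other 6 cortex libraries. In the hippocampus it was 0.405% in TBI rat 9 and 0.358% in sham rat 5, with 0.150% to 0.278% in the other 8. In the thalamus it was 0.109% in TBI rat 6, with 0.234% to 0.409% in the other 9. The libraries named here were thus at the same end in promoter and in gene body shares, which were counted from the same sequenced material. Not all of them stood out in the gene body counts of these identifiers. Cortex rats 4 and 6 held 147 and 163, within the range of other cortex libraries, on high gene body totals of 60971 and 74054. Hippocampus sham rat 5 held 115, on the lowest total of its tissue (32148). Thalamus TBI rat 6 held 176, the lowest of its tissue, on the highest total (161737).

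**Figure D2:**
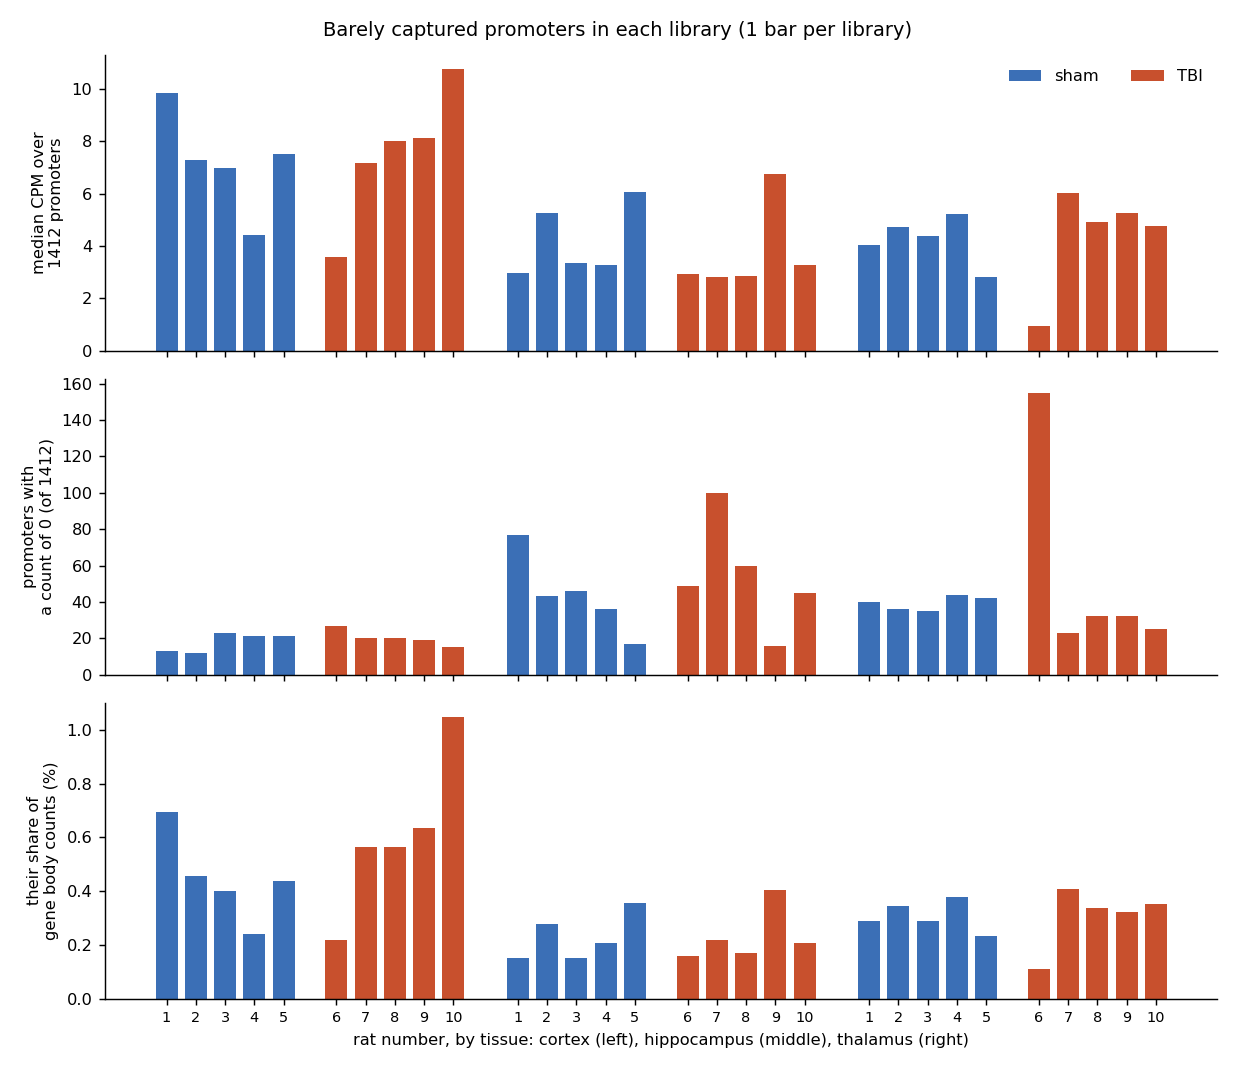
Each bar is 1 library (sham blue, TBI red, rats 1 to 10 in each tissue) and shows, from top to bottom, the median CPM over the 1412 selected promoters, the number of them with a count of 0, and the share (%) of gene body counts on their identifiers. TBI rat 10 is highest in the cortex at 10.8 CPM and 1.05%, and TBI rat 6 is lowest in the thalamus at 0.946 CPM and 0.109%, with 155 promoters at 0.

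The gene bodies of the selected identifiers also held few counts, in a readout that the selection did not use. In the cortex, 42.3% of them had 0 gene body counts in all 10 libraries, against 26.2% of the other identifiers. The shares were 71.3% against 48.2% in the hippocampus and 63.7% against 44.4% in the thalamus. At least 20 gene body counts were reached by 3, 7 and 22 selected identifiers (0.212%, 0.496% and 1.56%) in the 3 tissues, whereas 10.0%, 10.7% and 20.3% of the others reached them. In all 30 libraries, 371 selected identifiers had no gene body count. Without the 6 libraries, 62.9% of the selected and 46.0% of the other identifiers had no gene body count in the cortex, 79.9% and 57.1% in the hippocampus, and 64.02% and 45.1% in the thalamus. These sums were over 7, 8 and 9 libraries in place of 10, so they are not like for like with the shares above. In the cortex, TBI rat 10 held 586 gene body counts of the selected identifiers, against 131 to 231 in each other library. Lengths are not in the files, and the part of gene body length in these shares was not tested.

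The spread between the libraries of a group was wider for the selected promoters than for the others. Their median coefficient of variation (CV) of CPM in the cortex was 39.9% among sham and 45.7% among TBI libraries. For hippocampus it was 53.0% and 57.8%, and for thalamus 37.7% and 52.9%. The CV that counting alone would give at these depths was 25.3% and 23.3% (cortex), 35.9% and 36.4% (hippocampus), and 27.4% and 24.7% (thalamus). A CV above the counting CV was found for the other promoters too. Differences between rats and between library preparations cannot be told apart in it. For the other promoters, the median CV was 24.5% and 34.6% (cortex), 30.6% and 21.3% (hippocampus), and 15.9% and 24.2% (thalamus), sham first, with counting CVs of 12.3% and 11.9%, 14.6% and 14.8%, and 10.1% and 9.54%. The CV of the selected promoters was lower without the libraries that stood apart in each of the 5 groups that held any. Without them, it was, in sham and TBI, 33.4% and 27.6% (cortex), 46.6% and 44.0% (hippocampus) and 37.7% and 29.5% (thalamus), against counting CVs of 24.2% and 25.3%, 39.1% and 41.6%, and 27.4% and 23.4%. For the other promoters it was then 19.6% and 13.4%, 23.8% and 20.7%, and 15.9% and 13.6%.

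**Figure D3:**
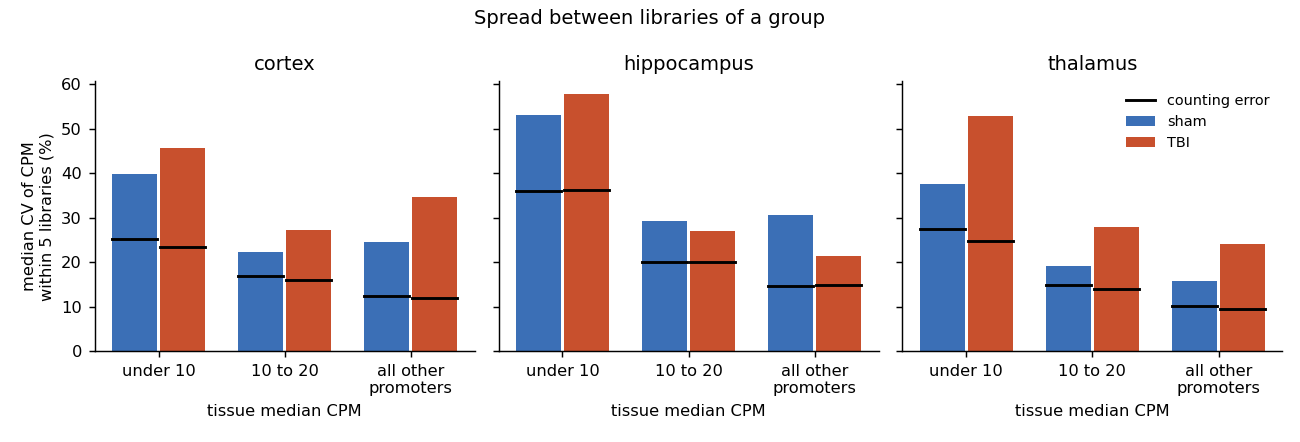
Bars give the median CV (%) of CPM within the 5 sham (blue) or 5 TBI (red) libraries of a tissue for the 1412 selected promoters (under 10 CPM), the 733 promoters at 10 to 20 CPM and all 18346 other promoters, and black lines give the median CV of counting error. The selected promoters have the highest bars in each group, from 37.7% to 57.8%, all above their black lines.

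The library with the highest CPM of a promoter was not spread evenly over the rats. In the cortex, TBI rat 10 was the highest library for 555 selected promoters and sham rat 1 for 352. In the hippocampus, TBI rat 9 was the highest for 602 and sham rat 5 for 455, and in the thalamus TBI rat 7 was the highest for 440. The highest library exceeded 5 times the tissue median for 5 promoters in the cortex, all in TBI rat 10. It did so for 66 in the hippocampus (36 in TBI rat 9, 27 in sham rat 5 and 3 in sham rat 2) and for 1 in the thalamus, in TBI rat 9. The counts above 5 times the tissue median are over promoters with a median of at least 1 CPM, of which there were 1381, 1354 and 1338. Neither kind of count was made over the other promoters, so they do not show a trait of the selected ones.

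A few promoters selected as barely captured were strongly captured in a single rat. ENSRNOG00000047159 reached 171.6 CPM in the TBI cortex of rat 10, while the remaining 9 cortex libraries held 1.59 to 20.1 CPM. ENSRNOG00000045815 reached 179.6 CPM there, against 1.59 to 32.8 CPM. Both also had their second highest cortex level in sham rat 1 and their highest hippocampus level in TBI rat 9, at 22.5 and 20.7 CPM. ENSRNOG00000046366 had 169.7 CPM in the TBI hippocampus of rat 9, while the remaining 9 libraries held 4.74 to 16.4 CPM, and 8.64 CPM in the cortex of the same rat. In the thalamus, ENSRNOG00000037283 was at 19.4 CPM in TBI rat 9 and at 19.1 CPM in sham rat 4, with 1.25 to 10.6 CPM in the others. In all, 7 selected promoters exceeded 100 CPM in a library, 3 in the cortex of rat 10 and 4 in the hippocampus of rat 9. In the other tissues of the same rat, those 3 had 0.558 to 4.92 CPM and those 4 had 3.04 to 14.9 CPM.

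**Figure D4:**
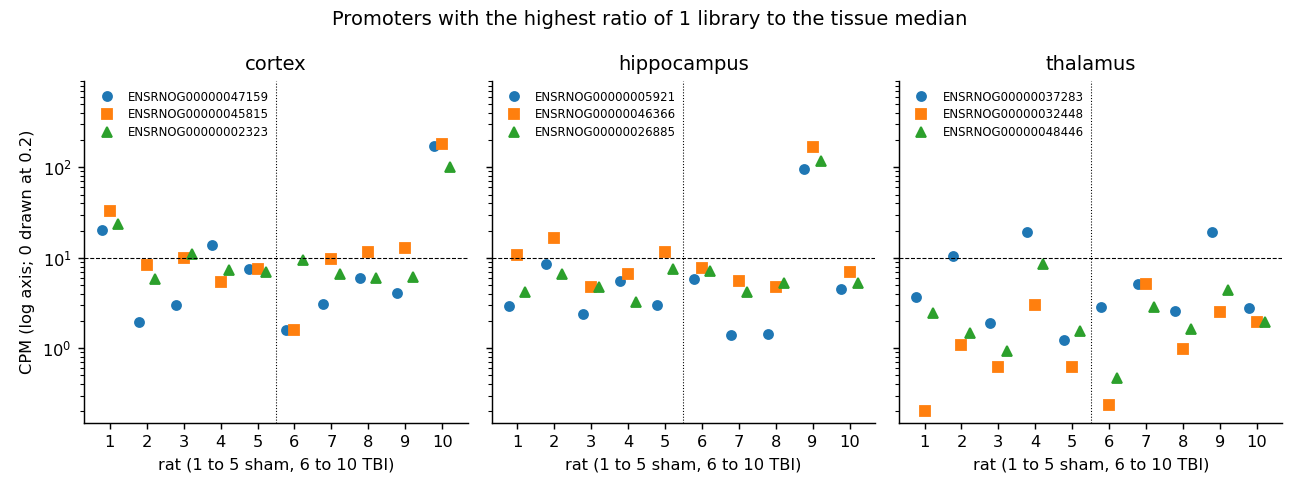
CPM (log axis, values of 0 drawn at 0.2) per rat of the 3 selected promoters with the highest ratio of 1 library to the tissue median in each tissue, with sham rats 1 to 5 left of the dotted line and 10 CPM as the dashed line. In the cortex TBI rat 10, and in the hippocampus TBI rat 9, stands above 90 CPM for all 3 promoters plotted.

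In the perilesional cortex, no selected promoter passed the adjusted threshold for a difference between TBI and sham. The quasi-likelihood test of edgeR with Benjamini-Hochberg adjustment over all 22302 windows called 0 of 1407 selected promoters with a count, and 0% of all windows. At an unadjusted p under 0.05, 16 selected promoters (1.14%) were higher and 1 (0.0711%) was lower in TBI, where 0.516% of all windows were higher and 0.229% were lower. The log2 fold change of TBI over sham had a median of 0.19 over the selected promoters and −0.01 over all windows, and 71.8% of the selected promoters were above 0, as were 48.2% of all windows. With DESeq2 and with limma voom, 0 were called as well.

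The direction and size of this shift in the cortex depended on single libraries and on the method. Without TBI rat 10, in which the selected promoters were highest, their median log2 fold change was −0.17, and at an unadjusted p under 0.05 there were 0 higher and 32 lower (2.27%), where 0.282% of all windows were higher and 0.484% lower. Without sham rat 1 it was 0.38, with 64 higher (4.55%) and 0 lower, against 1.15% and 0.309% of all windows. Without the libraries labelled cortex of rats 4, 6 and 10, it was −0.19, with 3 higher (0.213%) and 46 lower (3.27%), against 1.29% and 1.43% of all windows. That setting kept sham rat 1, in which the selected promoters were second highest (9.84 CPM). No setting left out both TBI rat 10 and sham rat 1, so the direction without either was not tested. Scaled by library totals alone, the median was 0.06 over the selected promoters and −0.08 over all windows. With limma voom and sample quality weights, it was 0.02 and −0.02.

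In the hippocampus, 0 of 1406 selected promoters were called by edgeR, as were 0% of all 22301 windows. At an unadjusted p under 0.05, 31 (2.20%) were higher and 14 (0.996%) lower in TBI, where 1.31% of all windows were higher and 1.71% were lower. The median log2 fold change was 0.01, against 0.00 over all windows, and 51.4% of the selected promoters were above 0, as were 51.0% of all windows. Without TBI rat 9, the median was −0.25, with 3 higher (0.214%) and 50 lower (3.56%) at the unadjusted threshold, against 0.798% and 2.34% of all windows. Without the libraries of rats 5 and 9 it was −0.17, with 11 higher (0.785%) and 37 lower (2.64%), against 1.77% and 1.46% of all windows. Neither DESeq2 nor limma voom called any.

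In the thalamus, 0 of 1401 selected promoters were called by edgeR, as were 0% of all 22296 windows, and 0 by DESeq2 or limma voom. At an unadjusted p under 0.05, 12 (0.857%) were higher and 1 (0.0714%) lower in TBI, where 0.408% of all windows were higher and 0.493% were lower. The median log2 fold change was 0.09, against 0.02 over all windows, and 61.0% of the selected promoters were above 0, as were 55.7% of all windows. Without the library labelled thalamus of TBI rat 6, in which the selected promoters were lowest, the median was 0.25, with 121 higher (8.64%) and 2 lower (0.143%) at the unadjusted threshold, against 3.13% and 2.7% of all windows. None was called after adjustment by edgeR in that setting. Without TBI rat 7 the median was −0.03 and without sham rat 5 it was −0.02.

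**Figure D5:**
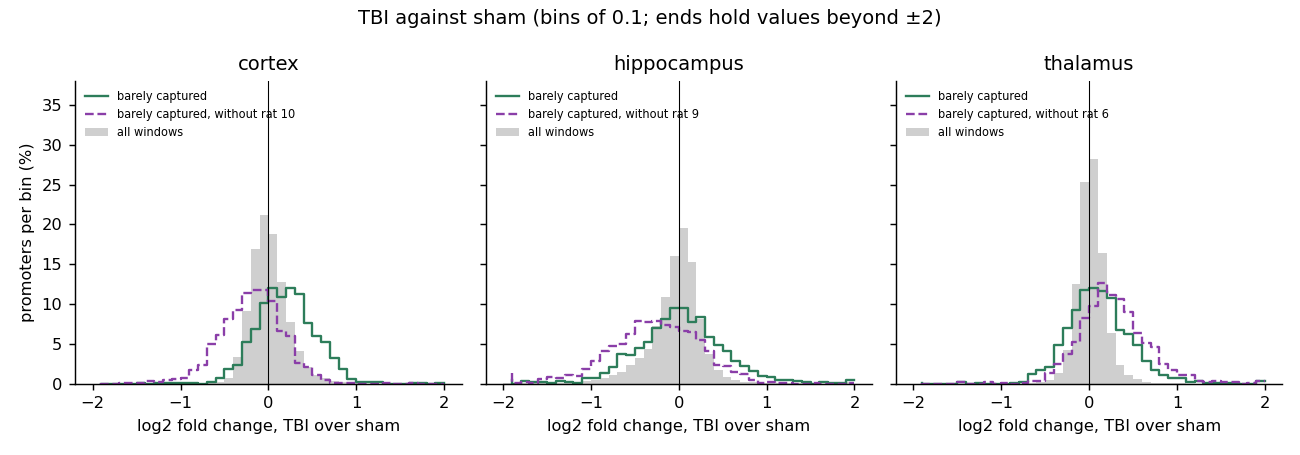
Share of promoters (%) by log2 fold change of TBI over sham for all windows (grey bars), the selected promoters in all libraries (green) and the selected promoters without 1 TBI library (dashed purple), in bins of 0.1. The selected promoters spread wider than all windows in each tissue, and their median moves from 0.19 to −0.17 in the cortex without rat 10, from 0.01 to −0.25 in the hippocampus without rat 9 and from 0.09 to 0.25 in the thalamus without rat 6.

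A test that gave every window the same dispersion called some selected promoters, and all of those higher in TBI had their highest value in 1 rat. This exact test on library totals called 2 in the cortex, both higher in TBI, which were ENSRNOG00000047159 and ENSRNOG00000045815 with their high values in rat 10, where it called 0.0314% of all windows higher and 0% lower. In the hippocampus it called 17, of which 15 were higher in TBI and had their highest CPM in rat 9. The other 2 were lower in TBI and had their highest CPM in the library labelled hippocampus of sham rat 5. For ENSRNOG00000051001 that value was 7.07 CPM, and another library reached 7.01 CPM. For ENSRNOG00000037506 it was 12.6 CPM, with up to 7.22 CPM elsewhere, and its edgeR log2 fold change without sham rat 5 was −1.48. Of all hippocampus windows, it called 0.314% higher and 0.52% lower. In the thalamus it called 0.

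The promoters with the smallest p are given with their values, none of which passed the adjusted threshold (edgeR, adjusted p rounding to 1 for each). They were chosen by the comparison they show, so groups that do not overlap carry no test. How many of all windows had such groups was not counted. In the cortex, ENSRNOG00000024530 had 6.15, 8.74, 7.46, 4.93 and 7.52 CPM in sham rats 1 to 5 and 4.37, 13.3, 18.1, 9.15 and 14.8 CPM in TBI rats 6 to 10. Its mean was 6.96 ± 1.46 CPM (SD, n = 5) in sham and 11.9 ± 5.30 CPM in TBI, a log2 fold change of 0.87 (SE 0.36). The TBI libraries were above every sham library except that of rat 6, so that the groups overlapped. In the hippocampus its log2 fold change was 0.84 (SE 0.38) and in the thalamus 0.25 (SE 0.45).

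ENSRNOG00000007472 was among the smallest p in both cortex and thalamus. In the thalamus it had 0.618, 1.46, 0.941, 2.62 and 0.935 CPM in sham and 1.66, 6.34, 3.27, 3.60 and 3.63 CPM in TBI, with means of 1.31 ± 0.788 and 3.70 ± 1.68 CPM (SD, n = 5 each) and a log2 fold change of 1.54 (SE 0.46). The TBI library of rat 6 lay below sham rat 4, and the other 4 TBI libraries were above every sham library. In the cortex it had 5.74, 2.43, 3.48, 2.46 and 6.98 CPM in sham and 4.77, 5.13, 7.02, 10.2 and 13.3 CPM in TBI, with a log2 fold change of 1.11 (SE 0.47). Leaving out 1 rat at a time, its log2 fold change was 0.65 to 1.304 in the cortex and 1.29 to 1.90 in the thalamus. It was 0.56 in the cortex without rats 4, 6 and 10 together, and 1.64 in the thalamus without rat 6. In the hippocampus the groups overlapped widely, with 2.80 to 5.91 CPM in sham and 2.46 to 10.0 CPM in TBI.

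ENSRNOG00000046346 was the selected promoter lower in the TBI cortex at the unadjusted threshold. It had 18.03, 14.1, 10.4, 1.97 and 15.6 CPM in sham and 3.18, 7.18, 8.52, 4.57 and 4.51 CPM in TBI, a log2 fold change of −1.03 (SE 0.44). The library labelled cortex of sham rat 4 was the lowest of all 10, and the other 4 sham libraries were above every TBI library. Its log2 fold change was −0.69 (SE 0.56) in the hippocampus and −0.11 (SE 0.55) in the thalamus.

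In the hippocampus, ENSRNOG00000036814 had 4.74, 8.53, 5.77, 4.67 and 5.56 CPM in sham and 11.8, 10.5, 7.59, 21.6 and 7.78 CPM in TBI, a log2 fold change of 1.08 (SE 0.34). The sham library of rat 2 lay within the TBI range and the other 4 below it. Without rats 5 and 9, the log2 fold change was 0.68. ENSRNOG00000026885 had 3.27 to 7.58 CPM in sham and 4.19 to 7.07 CPM in 4 TBI libraries, but 119.0 CPM in TBI rat 9. Its log2 fold change of 2.44 (SE 0.78) was 0.21 without that library.

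ENSRNOG00000006637, chosen for its small p in this comparison, was lower in every TBI hippocampus library than in every sham library. It had 4.14, 5.91, 3.85, 7.01 and 10.1 CPM in sham and 2.36, 2.80, 0.474, 3.59 and 2.05 CPM in TBI, with means of 6.20 ± 2.54 and 2.25 ± 1.15 CPM (SD, n = 5 each) and a log2 fold change of −1.36 (SE 0.46). The gap between the lowest sham and the highest TBI library was small against the spread of either group. Its log2 fold change was 0.06 (SE 0.41) in the cortex and −0.13 (SE 0.33) in the thalamus. ENSRNOG00000037506 had 0.592 to 12.6 CPM in the sham hippocampus and 0 to 2.25 CPM in TBI, with the highest sham value in rat 5 and a log2 fold change of −1.995 (SE 0.67).

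In the thalamus, ENSRNOG00000016598, also chosen for its small p, was higher in every TBI library than in every sham library. It had 2.78, 1.82, 2.51, 2.99 and 2.18 CPM in sham and 3.31, 3.49, 4.90, 6.64 and 6.42 CPM in TBI, with means of 2.46 ± 0.467 and 4.95 ± 1.57 CPM (SD, n = 5 each) and a log2 fold change of 1.06 (SE 0.35). Its groups overlapped in the cortex and in the hippocampus, where the log2 fold changes were 0.34 (SE 0.39) and −0.04 (SE 0.39). ENSRNOG00000032739 had 2.78, 1.46, 1.25, 2.99 and 0.312 CPM in sham and 0, 0.634, 0.327, 0.277 and 0.558 CPM in TBI thalamus, a log2 fold change of −2.17 (SE 0.75). At such levels a library holds only a few counts of the promoter, and sham rat 5 lay within the TBI range.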

How the data were processed

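The authors captured methylated genomic DNA with a methyl-binding-domain kit, sequenced it, aligned the reads to the rat genome build Rnor_5.0 by STAR with splicing off, and took counts per region in R 3.1.0. The deposited tables held whole-number counts per promoter and per gene body with no normalization, and all 60 columns of these tables were used. Exon tables were not used here.

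The 1412 promoters and the lists were chosen with earlier results of these data known. Each promoter table held 22307 windows. In each tissue, 5 sham and 5 TBI libraries were compared by the quasi-likelihood F test of edgeR 4.0.16 in R 4.3.3, on every window with at least 1 count, with TMM scaling, Benjamini-Hochberg adjustment over all windows and a threshold of 0.05. No higher minimum was set, because filterByExpr (minimum count 10, minimum total count 15) would have kept 1233 (cortex), 404 (hippocampus) and 1051 (thalamus) of the selected promoters. With all libraries, an unadjusted p under 0.05 was met by 0.744% (cortex), 3.02% (hippocampus) and 0.902% (thalamus) of all windows. Library profiles were correlated on log2(CPM + 1). The counting CV was that of Poisson counts at the libraries' totals.

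Named promoters were, per tissue, up to 2 of each direction among the 5 with the smallest p, those with the highest ratio of 1 library to the tissue median, and, by value only, those nearest to the threshold. Gene families and cell type genes listed by symbol gave no values, because the files do not pair identifiers with symbols. For the same reason no sequence is shown. Alternatives were DESeq2 1.42.0, limma 3.58.1 voom with sample quality weights, an exact test with a common dispersion and library totals, library totals without TMM, filterByExpr, at least 10 counts in sum, windows with the same counts kept once, and each rat left out. Leaving out together the 6 libraries that stood apart was added after the data were seen. Each rat gave 1 library per tissue, so that p-values measure the spread between rats and between library preparations together. Tables and figures were made with Python 3.11.15, pandas 2.3.3 and matplotlib 3.10.9.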

Additional observations from a re-analysis of the deposited data

Results flagged for a closer look

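In 54 groups of 5 libraries, the highest or lowest library was compared with the other 4 by Dixon's criterion, which chance meets in about 1 in 20 groups (2.7 groups). It was met in 15, many of them in promoters chosen because 1 library was high.

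Over all selected promoters, TBI rat 9 stood apart in the hippocampus, where they took 1.17% of the counts with a median of 6.74 CPM, against 0.469% to 0.501% and 2.80 to 3.28 CPM in the other 4 TBI libraries. The library labelled thalamus of TBI rat 6 stood apart with 0.216% of the counts, a median of 0.946 CPM and 155 promoters at 0, against 0.723% to 0.892%, 4.75 to 6.02 CPM and 23 to 32.

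For single promoters in the cortex, TBI rat 10 stood apart at 171.6 CPM for ENSRNOG00000047159, 179.6 CPM for ENSRNOG00000045815 and 101.5 CPM for ENSRNOG00000002323, where the other TBI libraries reached at most 12.7 CPM. Sham rat 1 stood apart for ENSRNOG00000045815 at 32.8 CPM, against 5.42 to 9.95 CPM. In the hippocampus, TBI rat 9 stood apart at 119.0 CPM for ENSRNOG00000026885, 96.5 CPM for ENSRNOG00000005921 and 169.7 CPM for ENSRNOG00000046366, and sham rat 2 at 8.53 CPM for ENSRNOG00000036814. In the thalamus, TBI rat 9 stood apart at 19.4 CPM for ENSRNOG00000037283 and sham rat 4 at 8.60 CPM for ENSRNOG00000048446.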

How the results depend on the processing

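Of 18 alternatives per tissue, only the exact test with a common dispersion changed the number of selected promoters called for TBI against sham, to 2 in the cortex and 17 in the hippocampus, against 0. It called 0 in the thalamus. Its calls ENSRNOG00000026885 and ENSRNOG00000037506 in the hippocampus had log2 fold changes of 2.44 and −2.16. Leaving out 1 rat at a time gave 0 to 0 calls in each tissue. The number with an unadjusted p under 0.05 when 1 rat was left out was 3 to 64 (cortex), 40 to 56 (hippocampus) and 7 to 123 (thalamus), against 17, 45 and 13 with all rats. With all rats, the shares of all windows were 0.744%, 3.02% and 0.902%, and these moved as well. Without TBI rat 6 in the thalamus, where the 123 were found, 3.13% of all windows were higher and 2.7% lower. Without sham rat 1 in the cortex, where the 64 were found, the shares were 1.15% and 0.309%. Without TBI rat 6 in the cortex, 411 of 22302 windows were higher and 716 lower, against 34 and 1 of 1407 selected promoters. No paired analysis was possible because sham rats 1 to 5 and TBI rats 6 to 10 share no number within a tissue. Counts were lowest in the hippocampus, where a selected promoter had a median of 7 per library. With 5 rats a group and these counts, 0 calls do not show that methylation was alike.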
